A study of Mus musculus with 6 samples.

Results

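The genes described here encode kinesins, the motor proteins that walk along microtubules. Members were taken by symbol, as Kif followed by digits and an optional letter, or Kifc followed by a digit, in the GENCODE M21 annotation. This found 41 of the 55487 gene identifiers in each table. By known function, 12 were classed as mitotic, 15 as transport motors and 14 as other, with earlier results of these data known. The other class holds motors of cilia and centrioles, microtubule depolymerases and regulators, and members with little known in leukocytes. Expression was measured by polyA RNA sequencing of freshly prepared CD45+ cells, labelled as total hematopoietic cells, of wild-type C57BL6/J mice, with 3 libraries from mesenteric lymph nodes (mLN, which receive lymph from the gut) and 3 from the spleen. CD45 is a surface protein of nearly all blood cells but mature red cells. The sources used here give neither the age and sex of the animals nor how many went into a library, and nothing says that replicates came from separate animals. P-values therefore measure only the spread between these libraries, which may be technical.

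Kinesins use ATP to move along microtubules or to shape them. A first group is made mainly by dividing cells: these motors push spindle poles apart, carry chromosomes, trim microtubule ends and organise the midzone where the cell is cut. A second group carries vesicles, mitochondria and protein complexes in cells whether or not they divide. In lymphocytes, microtubule motors also take part in the positioning of the centrosome and of granules at the contact with another cell. The spleen of adult mice makes red cells and granulocytes beside its lymphocytes, whereas a lymph node normally does not.

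RSEM expected counts summed to 12584244 to 18119551 per library. Levels below are TMM-scaled CPM (counts scaled to a total of 1000000) unless TPM, which is also scaled by transcript length, is named. Fold changes are mLN over spleen, tested in edgeR by the quasi-likelihood test over 14427 genes with Benjamini-Hochberg adjustment over all of them, and calls were made below an adjusted p of 0.05. Of the 33 kinesins that passed the filter on low counts, 24 were called, 6 higher and 18 lower in mLN. Over all genes tested 45.5% were called, 23.8% lower and 21.8% higher. Ptprc, which encodes CD45, stood at 2675 ± 35.0 CPM in mLN and 2191 ± 39.0 CPM in spleen, and 7 markers of stromal, endothelial and epithelial cells summed to 6.07 to 6.86 CPM in mLN and 7.30 to 11.4 CPM in spleen. In CD45+ cells of a whole tissue, fewer cells of a type and less RNA per cell cannot be told apart.

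Most kinesins classed as mitotic held a short promoter sequence that the transport kinesins mostly lacked. Promoter windows of 300 bases, from 250 before to 50 after the start site in RefSeq (GRCm38.p6), were found for 32 of the 41 kinesins, 36 windows in all since some genes have more than 1 start. They were searched on both strands for the cell cycle genes homology region (CHR, TTTGAA or TTCGAA), the site through which the MuvB complexes act on late cell cycle genes, and for the CCAAT box, the site of the factor NF-Y. A CHR match lay in 10 of the 11 mitotic windows, in 1 of the 12 transport windows and in 3 of the 13 other windows, against 19.2% of the 32851 windows of all genes. Kif18a was the mitotic exception. The windows of Kif2a, a depolymerase of interphase and dividing cells that was classed as other, held no CHR match. No window was found for the mitotic Kif20a or for the transport motors Kif5a, Kif5b, Kif13b, Kifc2 and Kifc3. Some windows lay inside the gene as annotated in GENCODE, among them those of Kif14, Kif2c and Kif4 and the Kif1a window with the transport match. Among genes that work with the mitotic kinesins a CHR match was in 13 of 19 windows, and in 10 of 22 windows of other cell cycle genes. Both motifs were present in 7 of the 11 mitotic and in 0 of the 12 transport windows, against 7.52% of all windows. The 3 other kinesins with a CHR match, Kif24, Kif26b and Kif27, also held a CCAAT box. E2F words (TTTGGCGC, TTTCCCGC or TTTCGCGC) were in 2 of the 11 mitotic windows and 1.84% of all. The motifs overlap in no base of the windows printed, and a match is a description of letters, not of a bound site.

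The windows of 4 mitotic kinesins with large differences and of 2 transport kinesins are shown as examples, not by rank of difference. Kif14 (log2 fold change -1.51) is left out, and so is the Kif1a window with the transport match. The printed windows run 5′ to 3′ in the direction of the gene, with CHR and CCAAT matches on either strand in capitals. Their positions are chr11:102925075-102925374, minus strand for Kif18b, chrX:100625815-100626114, plus strand for Kif4, chr9:122950831-122951130, plus strand for Kif15 and chr19:37376132-37376431, plus strand for Kif11. For the transport motors they are chr2:153291166-153291465, plus strand for Kif3b and chr11:70700298-70700597, plus strand for Kif1c.
Kif18b: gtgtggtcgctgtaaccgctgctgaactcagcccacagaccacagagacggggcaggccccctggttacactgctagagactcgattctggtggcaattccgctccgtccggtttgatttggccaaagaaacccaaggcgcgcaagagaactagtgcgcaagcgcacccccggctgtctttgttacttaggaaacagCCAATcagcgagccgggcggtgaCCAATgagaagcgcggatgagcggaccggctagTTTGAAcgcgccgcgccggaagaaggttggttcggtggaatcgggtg
Kif4: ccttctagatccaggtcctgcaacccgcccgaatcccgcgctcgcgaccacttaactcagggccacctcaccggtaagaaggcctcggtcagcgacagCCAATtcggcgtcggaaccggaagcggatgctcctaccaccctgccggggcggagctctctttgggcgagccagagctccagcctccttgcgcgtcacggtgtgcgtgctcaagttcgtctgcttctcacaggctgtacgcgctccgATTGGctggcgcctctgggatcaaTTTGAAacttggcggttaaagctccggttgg
Kif15: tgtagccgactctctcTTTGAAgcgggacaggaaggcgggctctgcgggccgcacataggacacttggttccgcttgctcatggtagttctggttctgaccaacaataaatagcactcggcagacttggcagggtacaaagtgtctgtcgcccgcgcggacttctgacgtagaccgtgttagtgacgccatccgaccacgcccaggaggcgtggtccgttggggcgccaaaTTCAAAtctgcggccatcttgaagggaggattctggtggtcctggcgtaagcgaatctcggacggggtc
Kif11: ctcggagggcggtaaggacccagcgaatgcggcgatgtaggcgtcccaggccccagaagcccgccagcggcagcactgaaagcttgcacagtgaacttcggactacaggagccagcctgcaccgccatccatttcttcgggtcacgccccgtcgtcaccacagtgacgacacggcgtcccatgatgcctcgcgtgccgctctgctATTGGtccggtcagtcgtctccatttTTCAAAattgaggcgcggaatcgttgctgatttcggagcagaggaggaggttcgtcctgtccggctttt
Kif3b: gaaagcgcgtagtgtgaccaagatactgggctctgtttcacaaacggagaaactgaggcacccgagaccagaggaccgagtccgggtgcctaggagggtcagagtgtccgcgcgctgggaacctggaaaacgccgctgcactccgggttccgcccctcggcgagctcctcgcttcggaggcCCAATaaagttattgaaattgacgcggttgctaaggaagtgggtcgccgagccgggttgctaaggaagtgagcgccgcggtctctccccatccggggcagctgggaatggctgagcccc
Kif1c: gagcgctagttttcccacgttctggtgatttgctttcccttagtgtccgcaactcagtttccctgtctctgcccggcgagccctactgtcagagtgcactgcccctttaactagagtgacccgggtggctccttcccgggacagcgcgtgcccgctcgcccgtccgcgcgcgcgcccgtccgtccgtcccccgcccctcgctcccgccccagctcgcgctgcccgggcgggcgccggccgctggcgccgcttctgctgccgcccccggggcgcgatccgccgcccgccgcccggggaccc
Counted from the start site, where 1 is the first transcribed base and -1 the base before it, the CHR match began at 4 in Kif18b and at 20 in Kif4. In Kif11 it began at -19, as did the nearer of the pair in Kif15. Kif3b had a CCAAT match only and Kif1c neither motif. In windows not printed, the CHR match began at -228 in Kif14, at -103 in Kif2c and at -44 in the transport motor Kif1a.

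All 12 mitotic kinesins were called lower in mLN, and in each of them every mLN library lay below every spleen library. Their median log2 fold change was -1.02, with single genes from -1.61 to -0.45, beside a median of -0.0018 over all genes tested. Over all genes, 23.8% were called lower and 27.5% had libraries that did not overlap in the lower direction. Summed over the 12 genes, the level was 168 to 169 CPM in mLN and 326 to 336 CPM in spleen. The count of 12 depends on which genes were classed as mitotic, which was decided with earlier results of these data known. Kif2a, a depolymerase of interphase and dividing cells, was classed as other and was not called (log2 fold change 0.17).

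Markers of several cell types were lower in mLN, as were the mitotic kinesins (median log2 fold change -1.02). Median log2 fold changes were -6.78 for erythroid, -10.1 for granulocyte-precursor, -2.49 for progenitor, -1.06 for germinal-centre B-cell, -1.12 for plasma-cell and -0.88 for B-cell markers. T-cell markers went the other way (median 1.20). All 14 erythroid genes were called lower, with summed levels of 79.5 to 89.3 CPM in mLN and 1907 to 1972 CPM in spleen, and defining genes such as Car1 and Rhag had no counts in mLN. Most of the mLN sum was Tfrc, at 62.3 to 72.7 CPM in mLN and 149 to 155 CPM in spleen. All 9 granulocyte-precursor genes were lower (42.3 to 48.7 CPM in mLN and 855 to 872 CPM in spleen), with Ctsg, Elane, Fcnb and Ms4a3 at 0 in mLN. Nearly all of this mLN sum was Chil3, at 42.0 to 47.8 CPM in mLN and 187 to 193 CPM in spleen. Of the progenitor list, 7 of 7 tested genes were lower (18.1 to 20.0 CPM in mLN and 66.6 to 78.0 CPM in spleen). Germinal-centre B-cell genes were called lower in 5 of 7 tested (44.9 to 48.9 CPM in mLN and 68.2 to 70.4 CPM in spleen). S1pr2 (log2 fold change -0.26) and Fas (0.097) were not called, and Gcnt3, at 0 in mLN, did not pass the filter on low counts. Plasma-cell genes were called lower in 7 of 8 (404 to 423 CPM in mLN and 1074 to 1083 CPM in spleen). Over all genes tested, 23.8% were called lower. What part any of these cell types has in the levels of the mitotic kinesins was not tested.

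Among the motors that build the spindle, Kif11, the plus-end motor that slides antiparallel microtubules apart to make a bipolar spindle (chromosome 19, 37376403 to 37421859, GRCm38), stood at 25.4, 27.0 and 27.0 CPM in the mLN libraries, against 56.8, 55.9 and 55.5 CPM in the spleen libraries. The tissues did not overlap, and the libraries of each tissue lay close together (log2 fold change -1.08, SE 0.0738, adjusted p = 3.30e-16). Kif15, which can take over part of the work of Kif11, was at 10.8, 12.6 and 10.5 CPM in the mLN libraries, against 28.3, 28.2 and 29.3 CPM in the spleen libraries (log2 fold change -1.33, SE 0.108, adjusted p = 8.12e-14). With the authors' effective length as an offset its log2 fold change was -0.81, still called (adjusted p = 0.00133 in edgeR, adjusted p 1.86e-31 to 0.00392 over 15 alternatives). Kifc1, a minus-end motor that bundles microtubules at the poles, had a smaller difference, with 24.2, 21.9 and 21.5 CPM in the mLN libraries, against 31.3, 34.0 and 32.2 CPM in the spleen libraries (log2 fold change -0.53, SE 0.0884, adjusted p = 2.99e-06). Its transcripts share 38.6% of their 50-base words with those of Kifc5b, a near-identical copy, so the split of reads between the copies is uncertain. With the counts of both copies summed, the log2 fold change was -0.47 (adjusted p = 4.73e-07 in edgeR, adjusted p 8.86e-08 to 0.00787 over 16 alternatives).

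Both motors that bind chromosomes were lower as well. Kif4, a chromosome-bound motor that also works with Prc1 at the midzone, was at 6.21, 11.1 and 8.50 CPM in the mLN libraries, against 23.7, 23.4 and 25.7 CPM in the spleen libraries (log2 fold change -1.48, SE 0.139, adjusted p = 4.86e-11), with mLN replicate 1 the lowest. Of its exon bases, 15.1% overlap Pdzd11 on the opposite strand, and the strand setting of the counting is not known. Kif22, which binds DNA and pushes chromosome arms outwards, was at 17.0, 19.5 and 16.4 CPM in the mLN libraries, against 33.6, 35.9 and 32.1 CPM in the spleen libraries (log2 fold change -0.93, SE 0.0945, adjusted p = 3.86e-11).

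Motors and depolymerases of microtubule ends were lower in each case. Kif2c, a depolymerase that corrects faulty kinetochore attachments, stood at 7.74, 6.41 and 8.02 CPM in the mLN libraries, against 16.0, 12.7 and 14.1 CPM in the spleen libraries (log2 fold change -0.96, SE 0.148, adjusted p = 7.25e-07). Kif18a, which damps chromosome movements at the metaphase plate, was at 5.27, 4.33 and 6.64 CPM in the mLN libraries, against 10.3, 8.29 and 9.92 CPM in the spleen libraries (log2 fold change -0.83, SE 0.181, adjusted p = 0.000191). Its relative Kif18b, which acts on the plus ends of astral microtubules, had the largest fitted difference of the class (chromosome 11, 102905529 to 102925124). It stood at 6.21, 6.13 and 6.64 CPM in the mLN libraries, against 18.5, 20.3 and 18.9 CPM in the spleen libraries (log2 fold change -1.61, SE 0.135, adjusted p = 2.16e-13), about 3.05-fold lower in mLN.

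Motors of the midzone and of cytokinesis spanned the range of the class. Kif14, which recruits citron kinase to the midbody, was at 5.47, 5.40 and 7.77 CPM in the mLN libraries, against 19.2, 18.3 and 15.0 CPM in the spleen libraries (log2 fold change -1.51, SE 0.152, adjusted p = 3.28e-11). Kif20a, which brings the chromosomal passenger complex to the midzone, was at 12.5, 12.1 and 11.7 CPM in the mLN libraries, against 35.2, 30.7 and 31.6 CPM in the spleen libraries (log2 fold change -1.42, SE 0.103, adjusted p = 1.90e-15). Of its exon bases, 29.3% overlap Cdc23 on the opposite strand. Kif23, the motor subunit of centralspindlin, had a smaller difference, with 22.2, 20.2 and 20.1 CPM in the mLN libraries, against 31.6, 34.2 and 31.3 CPM in the spleen libraries (log2 fold change -0.63, SE 0.0902, adjusted p = 1.30e-07). Kif20b, which acts late in cytokinesis, had the smallest, with 25.5, 21.9 and 23.5 CPM in the mLN libraries, against 31.1, 34.6 and 30.8 CPM in the spleen libraries (log2 fold change -0.45, SE 0.0896, adjusted p = 5.38e-05). Its call did not hold with the effective-length offset (log2 fold change -0.17, adjusted p = 0.271 in edgeR, adjusted p 6.78e-06 to 0.271 over 15 alternatives) or with limma on log2 TPM. The balance of Kif20b and Kif18b differed between the tissues: log2 CPM of Kif20b less that of Kif18b was 1.95, 1.75 and 1.75 in the mLN libraries and 0.74, 0.75 and 0.69 in the spleen libraries. This pair was picked for its difference, so the values are a description.

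**Figure D1:**
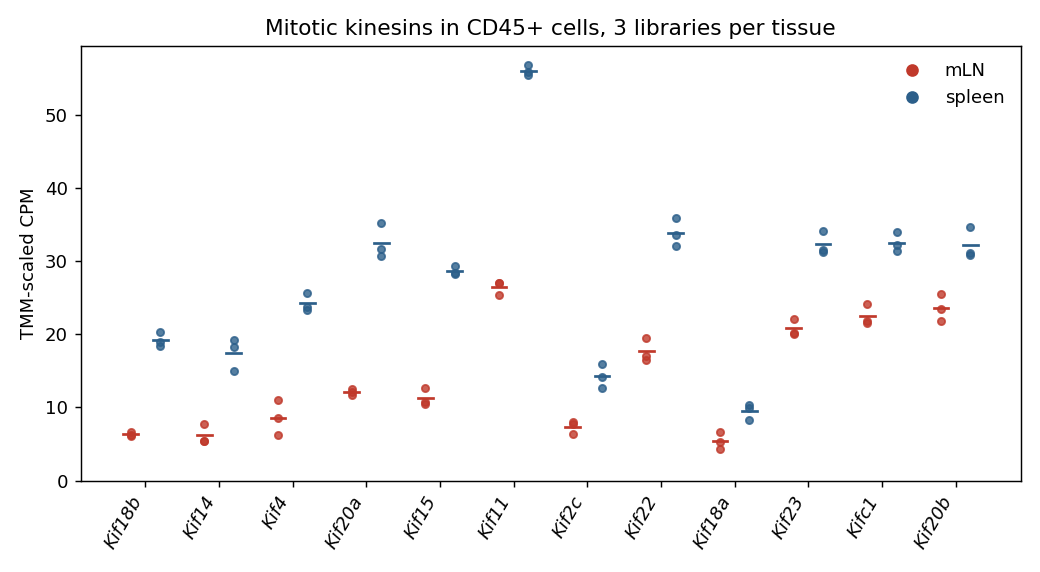
TMM-scaled CPM of the 12 mitotic kinesins in each of 3 mLN (red) and 3 spleen (blue) libraries, with points for libraries and bars for means, ordered by fold change. In each gene the mLN points lie below the spleen points, from Kif18b (log2 fold change -1.61) to Kif20b (-0.45).

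The 15 transport kinesins were divided. Of these, 14 passed the filter on low counts, with 4 called higher, 4 called lower and 6 not called, and a median log2 fold change of -0.057. As shares these are close to the 21.8% called higher and 23.8% called lower over all genes tested. Without spleen replicate 1, or with the effective-length offset, 2 were called lower, limma on log2 TPM called 0 or 1 lower by pseudocount and 2 higher, and the median turned to 0.089 with the offset and to 0.038 and 0.039 with limma. Their summed level was 645 to 651 CPM in mLN and 586 to 594 CPM in spleen. The mean log2 CPM of the mitotic kinesins less that of the tested transport kinesins was -0.64, -0.51 and -0.61 in the mLN libraries and 0.48, 0.42 and 0.36 in the spleen libraries, a change of balance between the classes given here as a description.

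Kif1b, which carries mitochondria and vesicle precursors (chromosome 4, 149176319 to 149307693), had the largest fitted rise among kinesins of at least 5 CPM. It stood at 103, 109 and 114 CPM in the mLN libraries, against 66.6, 64.2 and 56.3 CPM in the spleen libraries (log2 fold change 0.80, SE 0.0570, adjusted p = 1.91e-15). Its relative Kif1c, a motor of dense-core vesicles and of podosome turnover, was called lower by a small margin, with 80.5, 83.3 and 81.3 CPM in the mLN libraries, against 91.6, 87.1 and 92.3 CPM in the spleen libraries (log2 fold change -0.14, SE 0.0507, adjusted p = 0.0181). This call was lost without mLN replicate 1, without spleen replicate 1, without spleen replicate 3 and with limma on log2(TPM + 1) (adjusted p 0.0157 to 0.0706 over 15 alternatives). Kif1a, a motor best known from axons, was near the limit of detection, at 0.867, 0.787 and 1.46 CPM in the mLN libraries, against 0.460, 0.305 and 0.239 CPM in the spleen libraries (log2 fold change 1.58, SE 0.587, adjusted p = 0.025). Its call was lost under 7 of 15 alternatives, including without mLN replicate 3, spleen replicate 2 or spleen replicate 3 (adjusted p 0.0133 to 0.124 over 15 alternatives).

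Kif5b, the widely expressed heavy chain of conventional kinesin, had the highest TPM of the transport motors in both tissues. It stood at 202, 209 and 203 CPM in the mLN libraries, against 175, 187 and 183 CPM in the spleen libraries (log2 fold change 0.17, SE 0.0357, adjusted p = 0.000109), a call lost with limma on log2 TPM (adjusted p 5.33e-05 to 0.322 over 15 alternatives). Neither neuronal paralogue was called. Kif5c was at 5.54, 5.57 and 7.53 CPM in the mLN libraries, against 6.55, 7.55 and 8.19 CPM in the spleen libraries (log2 fold change -0.27, adjusted p = 0.252 in edgeR). Kif5a averaged 0.956 ± 0.159 CPM in mLN and 1.65 ± 0.492 CPM in spleen (SD, n = 3 each; log2 fold change -0.76, adjusted p = 0.163 in edgeR).

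Subunits of the heterotrimeric kinesin of cilia and vesicles were called in opposite directions. Kif3b was at 76.9, 80.3 and 77.0 CPM in the mLN libraries, against 61.3, 63.5 and 61.3 CPM in the spleen libraries, with no overlap (log2 fold change 0.33, SE 0.0567, adjusted p = 4.24e-06). Its partner Kif3a was at 2.94, 1.63 and 3.81 CPM in the mLN libraries, against 4.83, 5.48 and 3.95 CPM in the spleen libraries, and was called lower (log2 fold change -0.79, SE 0.276, adjusted p = 0.0166). That call was lost without mLN replicate 2, spleen replicate 1 or spleen replicate 2, with the effective-length offset and with limma on log2 TPM (adjusted p 0.00347 to 0.145 over 15 alternatives). Kif3c, which can pair with Kif3a in the place of Kif3b, was at 30.0, 21.4 and 33.2 CPM in the mLN libraries, against 29.3, 27.5 and 23.6 CPM in the spleen libraries and the tissues overlapped (log2 fold change 0.059, adjusted p = 0.773 in edgeR). Of its exon bases, 35.3% overlap 1110002L01Rik on the opposite strand.

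Endosomal motors were lower or not called. Kif13b, first described as a partner of the discs large scaffold in T cells, was at 67.9, 63.2 and 61.7 CPM in the mLN libraries, against 76.1, 75.8 and 80.0 CPM in the spleen libraries (log2 fold change -0.27, SE 0.0578, adjusted p = 0.000174), a call lost with limma on log2 TPM (adjusted p 2.20e-05 to 0.0878 over 15 alternatives). Kif13a, a motor of recycling endosomes, stood at 12.1, 10.5 and 12.4 CPM in the mLN libraries, against 17.4, 16.6 and 19.5 CPM in the spleen libraries (log2 fold change -0.62, SE 0.125, adjusted p = 5.84e-05), a call that neither the effective-length offset nor limma on log2 TPM kept (adjusted p 5.68e-06 to 0.179 over 15 alternatives). Kif16b, which binds early endosomes, was at 36.9, 34.9 and 35.2 CPM in the mLN libraries, against 34.0, 32.7 and 35.1 CPM in the spleen libraries (log2 fold change 0.073, adjusted p = 0.483 in edgeR). The tissues overlapped in both minus-end motors of the class. Kifc2 was at 12.7, 14.6 and 13.4 CPM in the mLN libraries, against 12.6, 11.8 and 15.5 CPM in the spleen libraries (log2 fold change 0.031, adjusted p = 0.876 in edgeR), and Kifc3 was at 12.7, 8.77 and 7.05 CPM in the mLN libraries, against 8.05, 12.2 and 12.1 CPM in the spleen libraries (log2 fold change -0.18, adjusted p = 0.486 in edgeR). Kif17, which did not pass the filter, had 3, 1 and 0 counts in the mLN libraries and 15, 11 and 8 in the spleen libraries, and was called lower when no filter was applied.

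**Figure D2:**
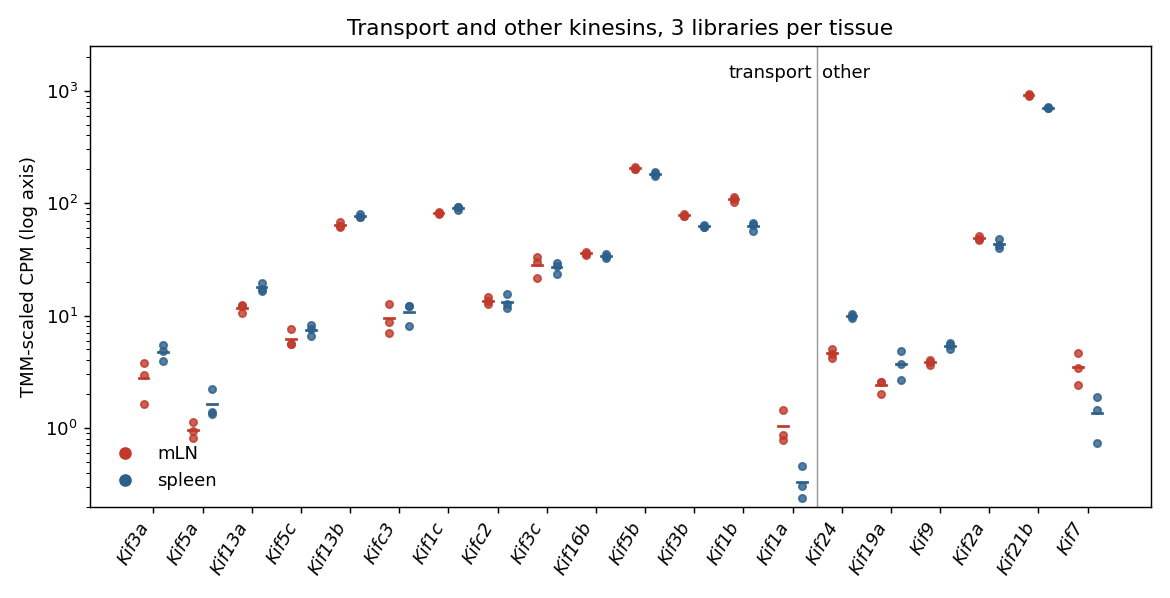
TMM-scaled CPM (log axis) of the 14 tested transport kinesins, left of the line, and of 6 other kinesins, right of it, in each of 3 mLN (red) and 3 spleen (blue) libraries, with bars for means. Kif1b, Kif3b, Kif5b and Kif21b stand higher in mLN, while Kif13a, Kif13b and Kif24 stand lower. Kif26b is left out because its mLN libraries had no counts.

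Of the 14 other kinesins, 7 passed the filter, with 2 called higher and 2 lower, beside 21.8% called higher and 23.8% called lower over all genes tested. Kif21b (chromosome 1, 136131389 to 136177998) had the highest TPM, a level per transcript length, of any kinesin in both tissues. Work in human T-cell lines describes it as a motor that restrains microtubule growth during centrosome movement to the immune synapse. It stood at 912, 901 and 941 CPM in the mLN libraries, against 706, 717 and 699.6 CPM in the spleen libraries, with no overlap (log2 fold change 0.38, SE 0.0257, adjusted p = 3.69e-16). Beside it all 9 T-cell marker genes were higher in mLN, with a summed level of 2631 to 2657 CPM in mLN and 1054 to 1060.4 CPM in spleen, and all 8 B-cell markers were lower (2848 to 2876 CPM in mLN and 5177 to 5297 CPM in spleen). Their part in the level of Kif21b was not tested.

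Kif7, a regulator of Hedgehog signalling in cilia, was at 2.40, 4.61 and 3.40 CPM in the mLN libraries, against 1.90, 0.731 and 1.43 CPM in the spleen libraries and was called higher (log2 fold change 1.36, SE 0.356, adjusted p = 0.00161), a call lost with limma on log2 TPM (adjusted p 0.000616 to 0.0802 over 15 alternatives). Of its exon bases, 19.1% overlap 9330171B17Rik on the opposite strand. Kif24, a centriolar depolymerase that keeps cycling cells from growing cilia, was at 5.07, 4.22 and 4.53 CPM in the mLN libraries, against 10.3, 9.93 and 9.44 CPM in the spleen libraries (log2 fold change -1.10, SE 0.176, adjusted p = 1.23e-06). Its call was lost with limma on log2 TPM (adjusted p 2.14e-08 to 0.0603 over 15 alternatives), and its window held a CHR and a CCAAT match, as did 7 of the 11 mitotic windows. Kif2a, a depolymerase of interphase and dividing cells, was at 51.0, 48.3 and 46.9 CPM in the mLN libraries, against 39.8, 42.1 and 48.1 CPM in the spleen libraries and not called (adjusted p = 0.057 in edgeR, adjusted p 0.0108 to 0.735 over 15 alternatives), though it passed without mLN replicate 3 or spleen replicate 3. Of its exon bases, 19.2% overlap Dimt1 on the opposite strand. Kif9, a motor of cilia and flagella, was at 4.07, 3.66 and 3.89 CPM in the mLN libraries, against 5.46, 5.73 and 5.02 CPM in the spleen libraries and was not called, although the tissues did not overlap (log2 fold change -0.48, adjusted p = 0.071 in edgeR). Kif19a, which trims ciliary microtubules, averaged 2.39 ± 0.339 CPM in mLN and 3.74 ± 1.07 CPM in spleen (SD, n = 3 each). It was not called (adjusted p = 0.071 in edgeR), though it passed without spleen replicate 3.

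Kif26b, an atypical kinesin whose motor domain is thought not to hydrolyse ATP, had 0 counts in each mLN library. In spleen it stood at 1.95, 2.56 and 2.51 CPM, 118 counts in all, so it was at least 35.1-fold lower in mLN against a floor of 3 counts over the mLN libraries (adjusted p = 2.22e-09 in edgeR, counting error only for the bound). In the spleen libraries Kif27 had 2, 4 and 2 counts, Kif21a 4, 1 and 0, and Kif28 1 in all, and each had 0 in mLN. Kif2b, Kif6, Kif12 and Kif26a had no counts in any library, which at this depth limits their level and does not show absence.

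**Figure D3:**
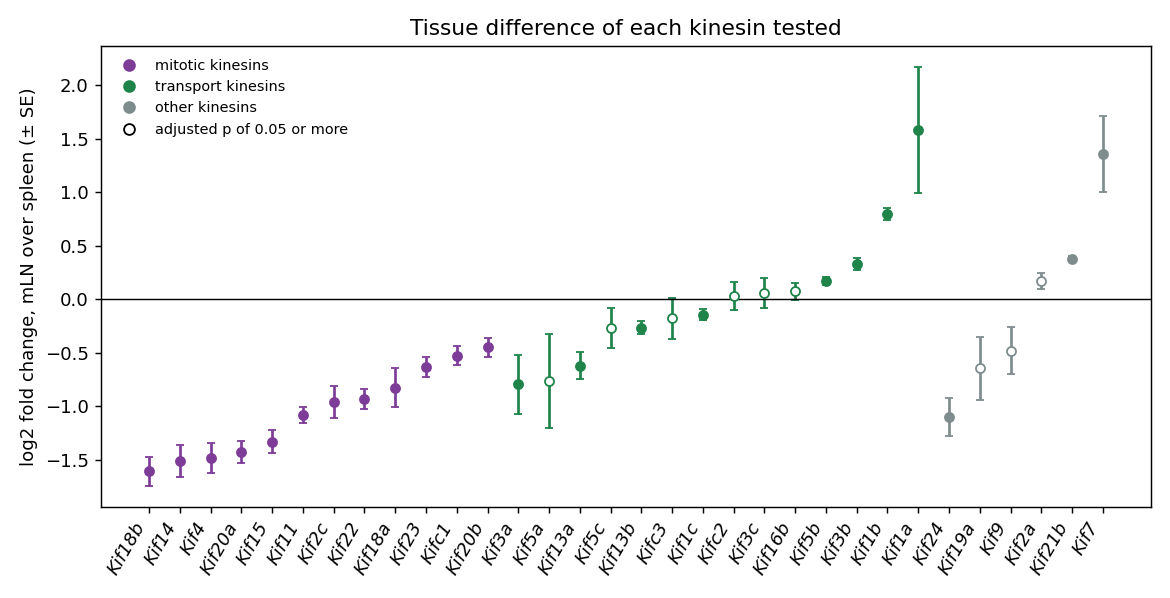
Log2 fold change (mLN over spleen, ± SE) of 32 of the 33 kinesins tested, by class, with open points where the adjusted p was 0.05 or more. The 12 mitotic kinesins all lie below 0, the transport kinesins on both sides, and Kif26b, with no mLN counts, is not drawn.

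Levels of different kinesins were compared per transcript length, in TPM. Kif21b was first in both tissues, with 154 ± 4.11 TPM in mLN and 123 ± 1.49 TPM in spleen, followed by Kif5b with 58.7 ± 0.973 TPM in mLN and 55.4 ± 2.09 TPM in spleen (SD, n = 3 each). In mLN Kif2a, Kif23 and Kif1b came next, at 28.4, 25.2 and 24.2 TPM, and their libraries overlapped. In spleen the next were Kif23 at 42.7 and Kif22 at 30.3 TPM. The place of Kif23 rests on estimated effective lengths of 1202 ± 179 bases in mLN and 1134 ± 166 in spleen. By CPM Kif23 averaged 20.8 in mLN and 32.3 in spleen, below Kif11 at 26.5 and 56.0. Kif1b held place 5 in mLN and place 14 in spleen, where it stood at 12.6 ± 1.06 TPM. Kif11 held place 15 in mLN and place 8 in spleen, at 8.29 ± 0.283 TPM in mLN and 18.2 ± 0.187 TPM in spleen.

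Summed TPM of the mitotic class was 109, 108 and 109 TPM in the mLN libraries and 199.6, 195 and 197 TPM in the spleen libraries. This was 22.6% ± 0.217 of all kinesin TPM in mLN and 36.9% ± 0.339 in spleen (SD, n = 3 each). Kif21b alone made up 32.1% ± 0.516 in mLN and 23.0% ± 0.344 in spleen. The summed TPM of the transport class was 183 ± 3.73 TPM in mLN and 177 ± 6.71 TPM in spleen, and the libraries overlapped.

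**Figure D4:**
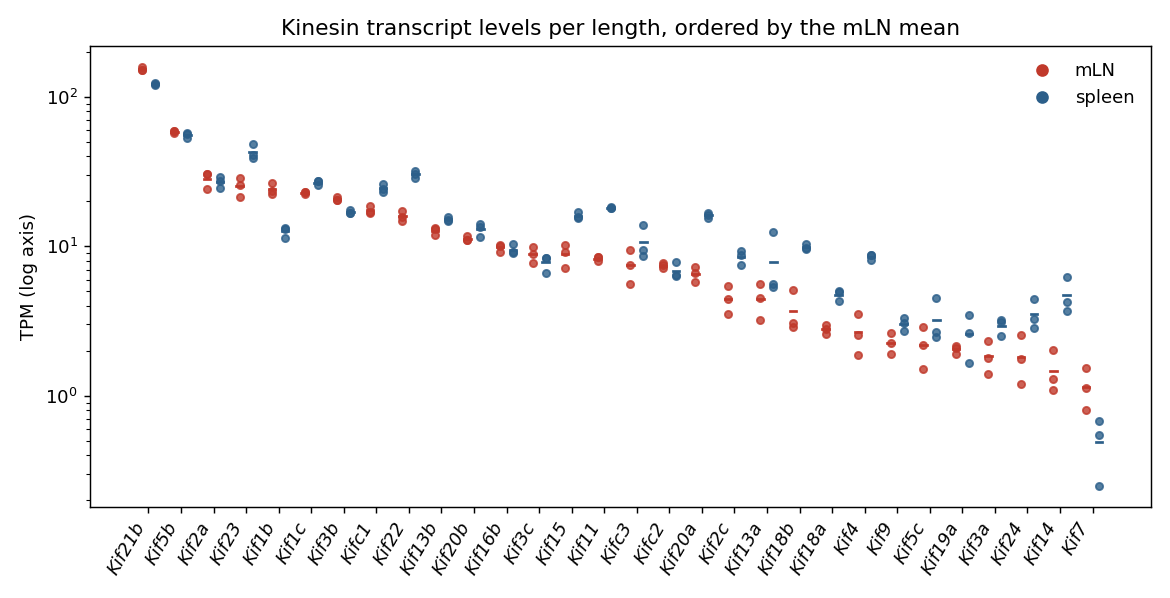
TPM (log axis) of the 30 kinesins with a mean of at least 1 TPM in a tissue, ordered by the mLN mean, with points for the 3 mLN (red) and 3 spleen (blue) libraries and bars for means. Kif21b and Kif5b lead in both tissues, and the mitotic genes Kif11, Kif20a and Kif4 stand out as lower in mLN.

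The effective length that RSEM reports for a gene is weighted by the transcripts it assigns reads to, so a difference can reflect another mix of transcripts. It was compared for the 26 kinesins among the 10597 genes with a mean of at least 5 CPM. The tissues did not overlap in 9 of the 26, against 25.1% of all genes compared. Kif15 had the largest difference, with 1712, 1768 and 2099 bases in the mLN libraries, against 2446, 2661 and 2820.5 bases in the spleen libraries, or -29.6% (two-sided exact permutation test, p = 0.1, which is the lowest possible with 3 libraries a tissue). Kif20b was also shorter in mLN, with 3144, 2865 and 3056 bases in the mLN libraries, against 3226, 3781 and 3976 bases in the spleen libraries (exact p = 0.1). Kif4 was longer, with 4771, 4532 and 4767 bases in the mLN libraries, against 3998, 4301 and 4359.6 bases in the spleen libraries (exact p = 0.1). A gene whose tissues do not overlap always has an exact p of 0.1 here, so these p-values add nothing to the non-overlap. Kif21b, at 8552 ± 70.7 bases in mLN and 8543 ± 134 in spleen, overlapped. These lengths are model estimates, and which transcripts differ was not tested.

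Genes that work with the mitotic kinesins were lower too. Of 20 partner genes, 19 were called lower and 0 higher, beside 23.8% lower and 21.8% higher over all genes tested. The median log2 fold change of the partners was -1.06. The largest log2 fold changes were in Anln (-1.57), an organiser of the contractile ring, Hmmr (-1.54), a spindle-pole protein, and Kntc1 (-1.40), a kinetochore protein. Tpx2, which targets Kif15 and the kinase Aurka to the spindle, averaged 19.2 ± 1.76 CPM in mLN and 45.1 ± 1.52 CPM in spleen (adjusted p = 6.35e-16 in edgeR). Prc1, the midzone bundler that binds Kif4, averaged 19.4 ± 1.17 CPM in mLN and 42.8 ± 4.54 CPM in spleen (adjusted p = 2.52e-14 in edgeR). Cenpe, a kinetochore kinesin that its symbol leaves outside the members, averaged 22.3 ± 2.02 CPM in mLN and 41.7 ± 2.77 CPM in spleen (adjusted p = 8.38e-12 in edgeR; SD, n = 3 each).

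Racgap1, the other subunit of centralspindlin, was the only partner not called. It stood at 67.8, 69.5 and 66.1 CPM in the mLN libraries, against 68.6, 69.5 and 65.0 CPM in the spleen libraries, and the tissues overlapped (log2 fold change 0.0032, SE 0.0581, adjusted p = 0.97). Log2 CPM of Kif23 less that of Racgap1 was -1.59, -1.75 and -1.69 in the mLN libraries and -1.11, -1.01 and -1.04 in the spleen libraries, a pair chosen after its values were seen.

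Of the cell cycle list, 26 of 26 genes were called lower (median -1.04), beside 23.8% called lower over all genes tested. Mki67 stood at 173 ± 3.59 CPM in mLN and 432 ± 1.18 CPM in spleen. Ccnb1 was at 11.5 ± 1.89 CPM in mLN and 33.9 ± 2.44 CPM in spleen, and the log2 fold change of E2f8 was -2.11. The replication genes Pcna (-0.23), Mcm2 (-0.31) and Mcm3 (-0.31) had the smallest differences of the list, smaller than that of any mitotic kinesin, and are named after their values were seen. In the lists of accessory subunits, cargo adaptors, and dynein and dynactin the median log2 fold changes were -0.12, 0.026 and -0.051. With both directions together, none of these lists was called more often than all genes tested, of which 45.5% were called. By direction, 23.8% of all genes were called lower and 21.8% higher. The cargo adaptors were called lower more often than that, and higher less often. Of 6 accessory subunits 1 was called lower, Klc4 (-0.30), and Klc1, Klc2 and Kifap3 were not, with log2 fold changes of -0.075, -0.17 and -0.24. Of 15 cargo adaptors tested, 5 were called lower, among them the mitochondrial adaptor Trak2 (-0.43), Arl8a (-0.32) and Hook3 (-0.30), and 1 higher, Madd (0.42), an adaptor of Kif1b. Of 19 dynein and dynactin genes, 3 were called higher and 3 lower, among them Dctn6 (0.42) and Dynlt3 (-0.61). Dync1h1, the dynein heavy chain, was at 768, 757 and 769 CPM in the mLN libraries, against 646, 652 and 647 CPM in the spleen libraries (log2 fold change 0.24, SE 0.0256, adjusted p = 1.75e-10).

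**Figure D5:**
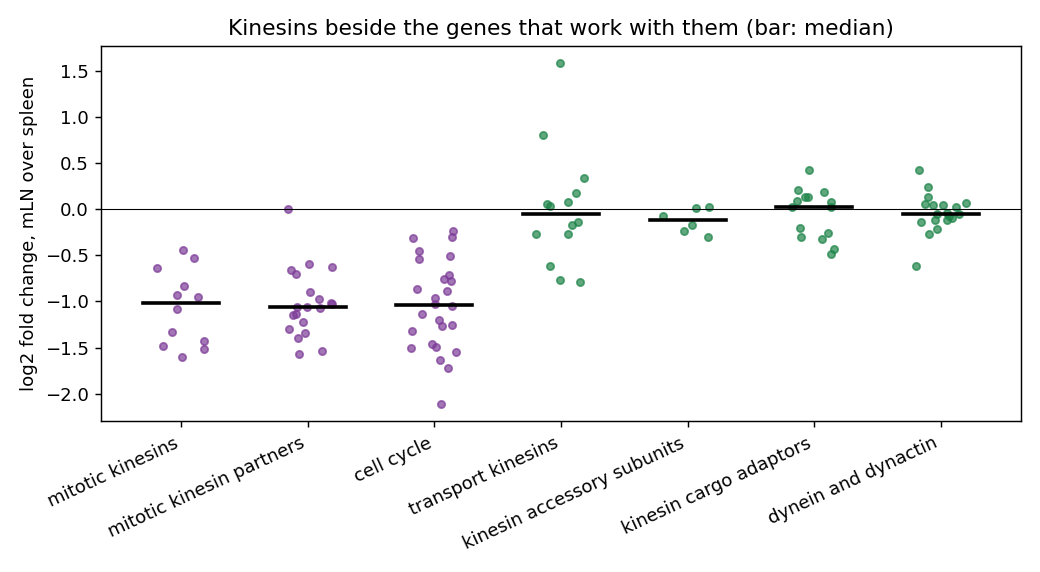
Log2 fold change (mLN over spleen) of each tested gene of 7 lists, with a bar for the median. The mitotic kinesins, their partners and the cell cycle genes centre near -1 (medians -1.02, -1.06 and -1.04), and the transport kinesins, accessory subunits, cargo adaptors and dynein and dynactin genes near 0.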

How the data were processed

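RNA libraries of CD45+ cells from mLN and spleen (3 each) were deposited as 1 gene table per library. Per the submitters' processing notes, STAR, RSEM and the mouse build mm10 were used. Versions, parameters, annotation and strand setting were not given in sources used here. The library kit was directional, per the labels' protocols. In the authors' deposited tables stand, per the file headers, an RSEM expected count per gene, an effective length and a TPM value that sums to 1000000 per library. Expected counts run from 12584244 to 18119551 per library, and were rounded. Of 55487 identifiers, 55141 matched a GENCODE M21 symbol (GRCm38, 1-based coordinates of whole genes). Genes were kept with filterByExpr by group (14427, of them 33 kinesins) and scaled with TMM factors. The main test was edgeR 4.0.16 under R 4.3.3, with a robust quasi-likelihood fit and tissue as its single term. It was tested on simulated data, and gave the adjusted p of each gene, with SE from the fold change and the F statistic.

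Kinesin classes and lists were chosen with earlier results of these data known, so list counts stand without a test. Values by library are given for kinesins of at least 5 CPM in a tissue, and for called ones of at least 1 CPM. Alternatives were RLE factors, DESeq2 1.42.0, no filter and a stricter filter (10 counts or more in all 3 libraries of a tissue). Others were each library left out, a replicate block and the effective length as offset. The last were leaving out antigen-receptor, globin, mitochondrial and ribosomal protein genes, and limma 3.58.1 on the deposited TPM. Summing Kifc1 with Kifc5b was added after the data were seen. Within a tissue, the median squared difference between pairs of libraries was 2.51 to 2.96 times what counting alone gives, so all 6 were kept. Some single marker and overlapping genes are not reported here.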

Additional observations from a re-analysis of the deposited data

How the results depend on the processing

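Each mitotic kinesin had a negative log2 fold change in every alternative. All 12 were called in every alternative but 3, where 11 were, Kif20b being lost with the effective-length offset and with limma on log2(TPM + 1) or log2(TPM + 0.1). Their median log2 fold change was -0.89 with the offset, -0.85 and -0.93 in the limma fits (pseudocounts 1 and 0.1), and -1.06 to -1.01 on leaving out 1 library. The transport median was -0.15 with no filter on low counts, 0.089 with the offset, 0.038 and 0.039 in the limma fits. Transport kinesins called lower were 2 with the offset, 0 and 1 in the limma fits, and 2 to 4 on leaving out 1 library, with 2 without spleen replicate 1. Transport kinesins called higher were 2 and all kinesins called higher 3 in each limma fit, which called 4378 and 4330 genes in all, against 6569. Of those the fit on log2(TPM + 0.1) had 1634 higher and 2696 lower, against 3139 and 3430, and it shifted the median of all genes to -0.051. Fold changes near 0 changed sign: leaving out 1 library gave -0.049 to 0.16 for Kifc2 and -0.069 to 0.23 for Kif3c. The cause of these shifts was not tested. Libraries with the same replicate number did not deviate together more than others. Their correlations over genes were -0.023 to 0.018, against -0.034 to 0.028 for unlike numbers. With 3 libraries a tissue this cannot show whether the numbers pair animals, so the number is used here only to name libraries. With the replicate number as a block, 6455 genes and the same 24 kinesins were called. Depth limits what can be said of kinesins with few counts, such as Kif1a, Kif17, Kif21a and Kif27, and the floor of 3 counts covers counting error only.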
